A study of Homo sapiens with 6 samples.

Results

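The genes described here encode the autophagy machinery and the receptors that feed cargo into it. They are 40 listed genes, taken by symbol from a table of 58299 Ensembl genes, and each of the 40 was found once in the table. AC16 is a human cell line made by fusing adult ventricular heart cells with transformed fibroblasts, and polyadenylated RNA was sequenced in 6 libraries of it. The 3 treated libraries came from cells given 100 nM CDDO-Me for 24 h and then 100 nM doxorubicin for 48 h, and the 3 control libraries from cells kept in 0.1% DMSO for the same 72 h. CDDO-Me (bardoxolone methyl) is a triterpenoid that modifies KEAP1 and so releases the transcription factor NRF2, and doxorubicin is an anthracycline that damages DNA through topoisomerase II. No cells that had received a single drug were analysed here, and the effects of the drugs cannot be told apart. Nothing in the labels says that the libraries of a group were separate cultures, and the spread behind the p-values may therefore be only technical.

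Autophagy encloses cytoplasm in a double membrane, the autophagosome, and delivers it to the lysosome. The ULK kinase complex starts the process, a class III phosphoinositide 3-kinase complex marks the forming membrane, and WIPI, ATG2 and ATG9 proteins bring lipid to it. A ubiquitin-like conjugation cascade then attaches the small ATG8 proteins (LC3 and GABARAP) to the membrane, where cargo receptors such as SQSTM1 bind them. In heart muscle cells autophagy is known for the turnover of mitochondria and protein aggregates, and SQSTM1 is a known NRF2 target whose product also binds KEAP1. The level of a transcript is no measure of autophagic flux, which was not measured.

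The promoters of 4 members are shown because SQSTM1 and MAP1LC3B had the largest increases among the 40, and ATG5 and ATG3 are members of the conjugation cascade that fell. Each is the 250 bases before a RefSeq start on GRCh38.p14, written along the gene's strand. The places are chr5:179820655-179820904 (plus strand) for SQSTM1, chr16:87392086-87392335 (plus strand) for MAP1LC3B, chr6:106325438-106325687 (minus strand) for ATG5 and chr3:112561963-112562212 (minus strand) for ATG3. Capitals mark TGACNNNGC, the core of the antioxidant response element that NRF2 binds, and CACGTG, the E-box at the centre of sites of TFEB and TFE3.

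SQSTM1: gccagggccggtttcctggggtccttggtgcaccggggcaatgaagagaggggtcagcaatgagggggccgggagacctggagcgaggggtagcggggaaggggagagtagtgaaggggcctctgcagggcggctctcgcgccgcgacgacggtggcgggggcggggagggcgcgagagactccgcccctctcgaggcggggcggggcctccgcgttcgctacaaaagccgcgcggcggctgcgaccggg
MAP1LC3B: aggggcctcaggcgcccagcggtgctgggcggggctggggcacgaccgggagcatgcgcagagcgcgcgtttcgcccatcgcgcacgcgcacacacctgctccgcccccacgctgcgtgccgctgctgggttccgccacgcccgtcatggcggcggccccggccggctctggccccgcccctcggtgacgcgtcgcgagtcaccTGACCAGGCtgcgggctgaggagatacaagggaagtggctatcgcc
ATG5: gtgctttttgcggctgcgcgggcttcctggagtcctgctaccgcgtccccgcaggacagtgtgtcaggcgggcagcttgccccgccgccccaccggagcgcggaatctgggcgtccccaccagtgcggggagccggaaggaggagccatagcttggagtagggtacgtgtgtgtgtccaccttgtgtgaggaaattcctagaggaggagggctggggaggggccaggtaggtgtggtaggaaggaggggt
ATG3: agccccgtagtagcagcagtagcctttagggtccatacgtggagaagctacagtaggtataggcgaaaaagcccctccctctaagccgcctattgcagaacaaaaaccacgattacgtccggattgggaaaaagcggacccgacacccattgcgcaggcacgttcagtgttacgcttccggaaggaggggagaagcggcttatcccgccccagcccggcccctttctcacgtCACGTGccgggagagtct

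RefSeq windows of 300 bases, 250 before and 50 after a start, were at hand for 33 of the 40 members and were searched on both strands. TGACNNNGC stood in the windows of MAP1LC3B (first base 46 before the start), ATG101 and CALCOCO2, 3 of the 33 members or 9.09%, against 13.3% of 35116 windows of all genes. CACGTG stood in those of ATG3, ATG14 and BNIP3, also 9.09%, against 7.26% of all windows. The longer TCACGTGA, which contains CACGTG, was found in the ATG3 window just after the start, and in 0.98% of all windows. A match of letters is not a binding site, and the windows of SQSTM1 and ATG5 held none of the 3 motifs. Sites farther from the start were not searched, so a window without a motif does not show that a gene lacks one.

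Counts per library ran from 17150259 to 20193957, and the replicates of a group differed by more than sampling noise. NQO1, an NRF2 target, averaged 2464 ± 39.1 CPM in treated and 561 ± 18.0 CPM in control libraries, and CDKN1A, a p53 target, 4248 ± 234 and 216 ± 10.7 CPM (SD, n = 3 each), where CPM are counts scaled to the size of a library with TMM factors. The cells were checked against markers of the tissue. Of 14 cardiomyocyte markers, 5 (TNNI3, MYH6, MYL7, NKX2-5 and TBX5) had 3 or fewer counts in all libraries together, and the 14 summed to 13.7 to 19.5 CPM in treated and 16.8 to 21.3 CPM in control libraries, most of it GATA4. The listed sarcomere genes were thus absent or near 0, and by these markers the cells did not resemble heart muscle. NPPB fell from 0.781 CPM in control to 0.0482 CPM in treated libraries (log2 change -3.85), and GATA4 fell by less (-0.33). ACTN2, PLN and RYR2 had 0 CPM in control libraries and averaged 0.289, 0.484 and 0.470 CPM in treated libraries, too low to be tested. The 11 fibroblast markers summed to 8036 to 8485 CPM in treated and 17013 to 18511 CPM in control libraries, and 10 of the 11 fell. The 6 endothelial markers summed to 12.5 to 13.3 CPM in treated and 21.7 to 24.7 CPM in control libraries. That fall is of TEK (7.01 ± 0.485 CPM in treated and 20.7 ± 0.630 CPM in control libraries; SD, n = 3 each), while PECAM1, CLDN5 and KDR rose at levels below 2 CPM. The 6 leukocyte markers summed to 6.12 to 6.89 CPM in treated and 2.0 to 3.08 CPM in control libraries. The part of these shifts in the differences below was not tested. All libraries came from the AC16 line, so these sums compare marker RNA and do not measure a mix of tissue cell types. In bulk RNA of the line, fewer cells in a given state and less RNA per cell cannot be told apart.

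SQSTM1 and MAP1LC3B rose most among the 40 autophagy genes, most cargo receptor and ULK complex genes rose by less, and ATG7, ATG10, ATG3 and ATG5 of the conjugation cascade fell. All 40 were tested with edgeR's quasi-likelihood test, adjusted by Benjamini-Hochberg over all 15575 genes tested. At an adjusted p below 0.05, 22 members were higher, 8 lower and 10 not called. The calls thus took in 75.0% of the members, against 63.5% of all genes tested and 74.1% of the 9639 genes of at least 10 CPM on average, a level that 38 of the members had. Higher calls took in 55.0% of the members, against 32.3% of all genes tested and 31.9% of those of at least 10 CPM. Lower calls took in 20% of the members, against 31.2% of all genes tested and 42.2% of those of at least 10 CPM.

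The median log2 change of the members was 0.17, against 0.02 over all genes tested, and the changes were mostly small. Of the 30 called members, 24 changed by less than 1.5-fold. At least 2-fold and called were 1 member higher (SQSTM1) and 0 lower, against 10.9% and 4.62% of all genes tested. The groups did not overlap in 30 of the 40 members, against 66.7% of all genes tested. In 21 of them every treated library stood above every control library, against 34.1% of all genes, and in 9 every treated library stood below, against 32.6%. Tested against a 1.5-fold change with glmTreat, 3 of the 40 members were called higher (SQSTM1, MAP1LC3B and ULK2) and 1 lower (ATG5). Over all 15575 genes tested, that test called 1852 higher and 1141 lower, so the members held no more such calls than their background. With total-count scaling, which moved the median of all genes to 0.15, 24 members were called higher and 5 lower, and 63.8% of the calls over all genes were higher, against 50.8% with TMM.

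**Figure D1:**
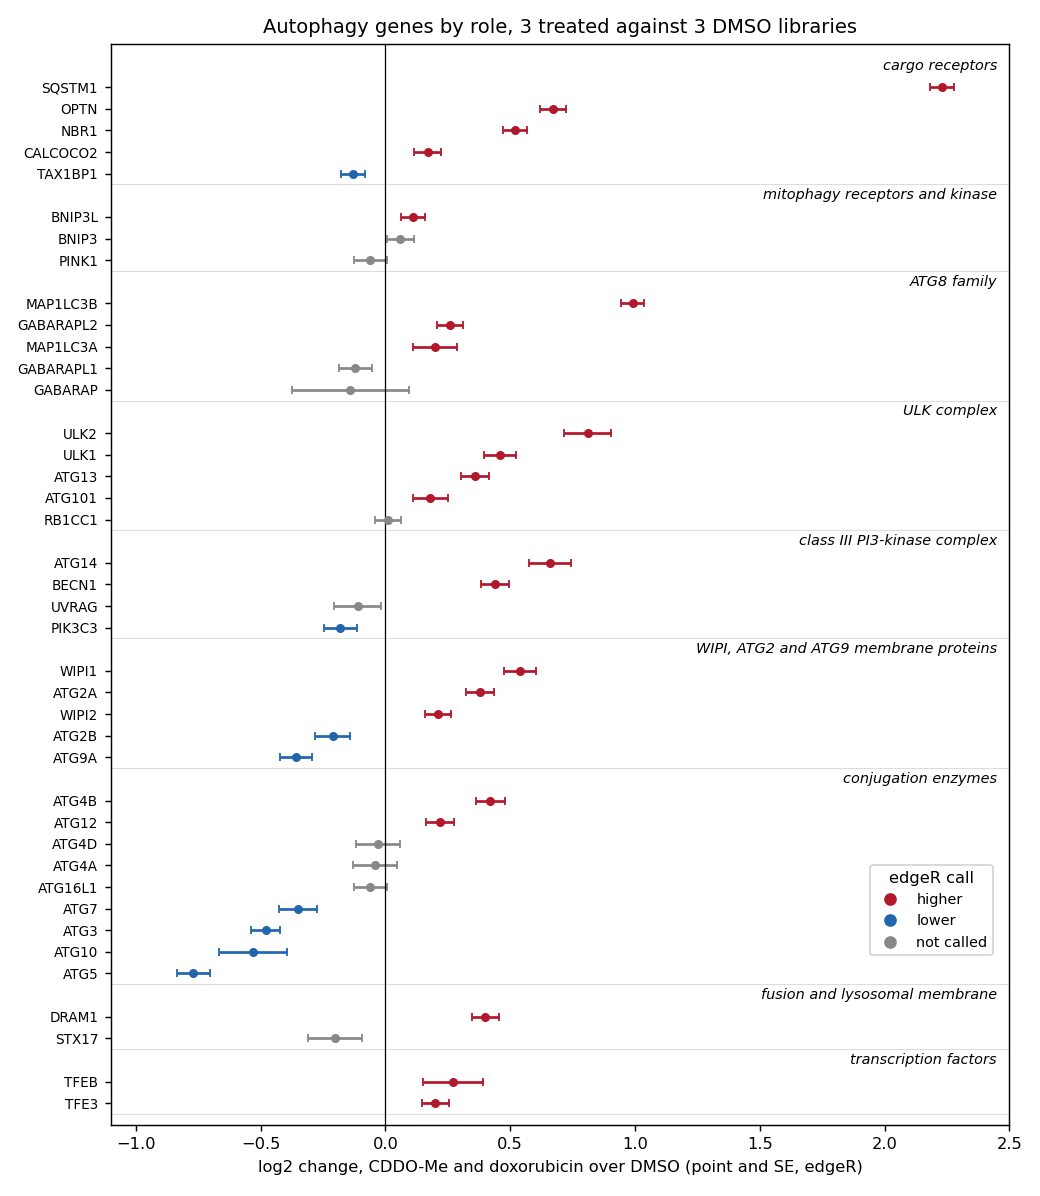
Log2 change of each of the 40 members, treated over DMSO, with its standard error from edgeR, grouped by role and coloured by call. SQSTM1 stands apart at 2.23, and ATG5, ATG10, ATG3 and ATG7 form the lower end of the conjugation enzymes at -0.77 to -0.35.

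**Figure D2:**
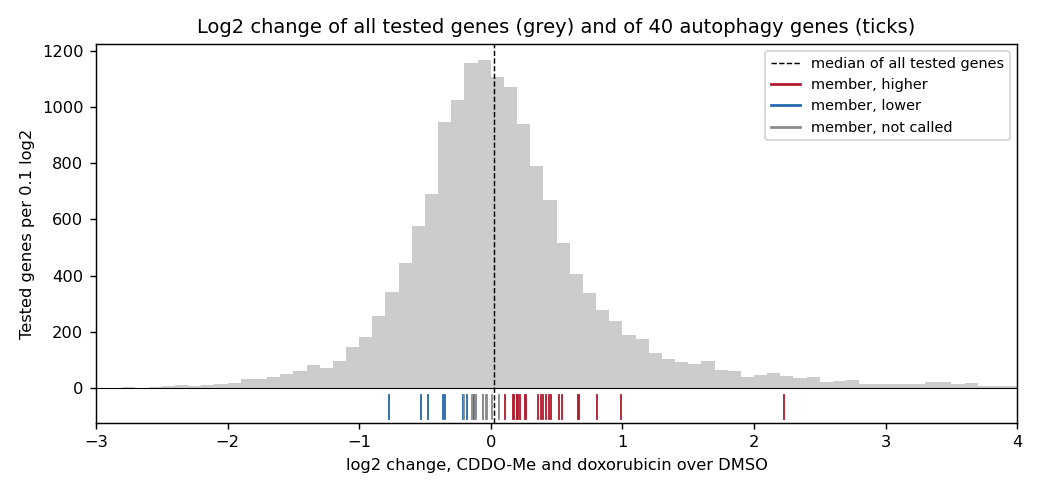
Number of tested genes per 0.1 log2 units of change (grey), with each member as a tick below the axis; genes beyond -3 or 4 lie outside the plot. The dashed line is the median of all tested genes, 0.02. Of the members, 22 were called higher (55.0%, against 32.3% of all genes tested) and 8 lower (20%, against 31.2%).

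Cargo receptors bind ubiquitin-marked cargo and ATG8 proteins at once. Of the 5, 4 rose (80%) and 1 fell (20%), against 32.3% and 31.2% of all genes tested. Each role holds few genes, so such a share says little about the role by itself. SQSTM1 (ENSG00000161011, GRCh38 chromosome 5, 179806398 to 179838078) stood at 644, 619 and 613 CPM in treated libraries, against 136, 137 and 127 CPM in control libraries. The groups lay far apart, with a log2 change of 2.23 (SE 0.0489, edgeR adjusted p = 1.18e-45), or 4.69-fold. OPTN, optineurin, a receptor for mitochondria and bacteria, stood at 169.7, 167 and 155 CPM in treated and 98.0, 105 and 106 CPM in control libraries, a log2 change of 0.67 (SE 0.0523). NBR1, a receptor that works with SQSTM1 in aggregates, stood at 219.8, 237 and 225 CPM in treated and 159.7, 156 and 159 CPM in control libraries (0.52, SE 0.0484). In both genes the lowest treated library was above the highest control library. CALCOCO2 (NDP52), a receptor for bacteria and mitochondria, averaged 111 ± 2.71 CPM in treated and 98.5 ± 4.94 CPM in control libraries (SD, n = 3 each). Its log2 change of 0.17 was called (edgeR adjusted p = 0.0054), but not without control replicate 2 (0.13, edgeR adjusted p = 0.067).

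TAX1BP1, a paralogue of CALCOCO2, was the receptor that fell, with 252, 249 and 241 CPM in treated and 269, 276 and 267 CPM in control libraries. Its log2 change was -0.13 (SE 0.0465, edgeR adjusted p = 0.014). It was not called without treated replicate 3 (-0.11, edgeR adjusted p = 0.0863), with upper-quartile factors (-0.07, edgeR adjusted p = 0.159) or with total-count scaling (-0.00, edgeR adjusted p = 0.991). Of the exon bases of SQSTM1, 22.0% are not its own alone, and MRNIP shares the most of them. Reads there cannot be told apart, since the library kit did not keep the strand.

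Set per kilobase of exon, the make-up of the receptors differed between the groups. The 5 receptors summed to 184, 182 and 177 CPM per kilobase in treated and 96.8, 98.3 and 97.7 in control libraries. SQSTM1 made up 45.8%, 44.5% and 45.3% of that sum in treated libraries, against 18.4%, 18.2% and 16.9% in control libraries. TAX1BP1, at 30.2% ± 0.409 the largest share in control libraries, held 14.9% ± 0.0544 in treated libraries (SD, n = 3 each). As the shares sum to a whole, a rise of SQSTM1 lowers the other shares even where those genes rose, as OPTN (17.6% in treated and 20.5% in control libraries) and NBR1 (15.0% and 19.3%) did.

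**Figure D3:**
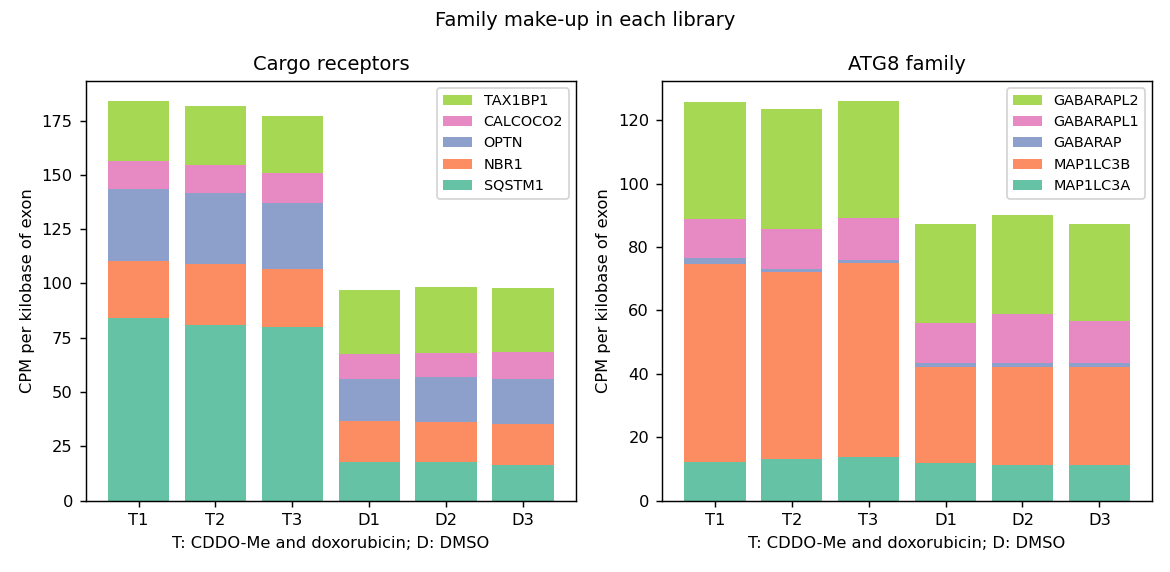
Stacked levels of the 5 cargo receptors (left) and 5 ATG8 genes (right) in CPM per kilobase of exon, 1 bar per library, treated (T) left of DMSO (D). SQSTM1 and MAP1LC3B make up most of the difference in bar height, with sums of 181 against 97.6 for receptors and 125 against 88.2 for ATG8 genes.

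The ATG8 proteins are the membrane-bound tags of the autophagosome. Of the 5 ATG8 genes, 3 rose (60%, against 32.3% of all genes tested) and 2 were not called. MAP1LC3B (ENSG00000140941, chromosome 16, 87383995 to 87404779), which encodes the LC3 form most used as an autophagosome marker, stood at 332, 314 and 326 CPM in treated and 161, 164 and 164 CPM in control libraries. The groups were about as far apart as a doubling, with a log2 change of 0.99 (SE 0.0475, edgeR adjusted p = 1.16e-27). GABARAPL2 (GATE-16) stood at 111, 115 and 112 CPM in treated and 94.3, 94.9 and 92.3 CPM in control libraries, a log2 change of 0.26 (SE 0.0527). MAP1LC3A averaged 23.1 ± 1.25 CPM in treated and 20.2 ± 0.638 CPM in control libraries (SD, n = 3 each), a log2 change of 0.20 near the threshold (edgeR adjusted p = 0.0478). That call did not hold without treated replicate 2 (0.19, edgeR adjusted p = 0.103), treated replicate 3 (0.16, edgeR adjusted p = 0.175), control replicate 2 (0.17, edgeR adjusted p = 0.14) or control replicate 3 (0.18, edgeR adjusted p = 0.118), nor with RLE scaling (edgeR adjusted p = 0.0513), DESeq2 (adjusted p = 0.0828) or a replicate block (edgeR adjusted p = 0.0578).

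GABARAPL1 had 51.0, 51.2 and 53.5 CPM in treated and 51.3, 64.0 and 54.6 CPM in control libraries, which overlap, and a log2 change of -0.12 that was not called (edgeR adjusted p = 0.0998). Without control replicate 1 it was called (-0.19, edgeR adjusted p = 0.0147). GABARAP had 3.76, 2.02 and 2.17 CPM in treated and 3.33, 2.78 and 2.65 CPM in control libraries. It was the lowest member per kilobase, and 55.7% of its exon bases are not its own alone. The gene that shares the most of them has 0 counts in all libraries, and the level of GABARAP may hold only part of its reads. MAP1LC3B alone made up 48.7% ± 0.957 of the ATG8 sum per kilobase in treated and 34.8% ± 0.616 in control libraries (SD, n = 3 each). A near-copy of part of its transcript, MAP1LC3B2 (97.3% identical over 22.4% of the transcript), held 134 counts in all, against 28713 for MAP1LC3B.

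The 3 members grouped as mitophagy receptors and kinase moved little. OPTN (0.67) and CALCOCO2 (0.17), receptors for mitochondria too, are given above with the cargo receptors, and other mitophagy genes are not covered here. BNIP3 and BNIP3L (NIX) encode outer-membrane receptors for mitochondria and PINK1 the kinase that marks damaged ones. BNIP3L, with 55.2 CPM per kilobase in treated libraries the third of the 40 members after SQSTM1 (81.7) and MAP1LC3B (60.9), and with 51.1 the first in control libraries, stood at 229, 244 and 241 CPM in treated and 215, 216 and 229.7 CPM in control libraries, with a log2 change of 0.11 (SE 0.0478, edgeR adjusted p = 0.0387). Its groups overlapped. The call did not hold without treated replicate 2 (0.09, edgeR adjusted p = 0.155), treated replicate 3 (0.10, edgeR adjusted p = 0.129), control replicate 1 (0.09, edgeR adjusted p = 0.143) or control replicate 2 (0.09, edgeR adjusted p = 0.162), nor with a replicate block (edgeR adjusted p = 0.0589). BNIP3 averaged 114 ± 1.57 CPM in treated and 109 ± 8.16 CPM in control libraries, and PINK1 49.9 ± 1.56 and 51.9 ± 2.79 CPM (SD, n = 3 each), neither called. PINK1 shared 41.7% of its exon bases with other genes, among them its antisense gene PINK1-AS, which held 1081 counts. A near-copy of part of the BNIP3 transcript, BNIP3P1, held 54 counts, against 12827 for BNIP3.

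The ULK complex is the kinase that starts autophagy and that MTORC1 holds off when nutrients are plentiful. Of its 5 genes, 4 rose (80%, against 32.3% of all genes tested) and 1 was not called. ULK2 stood at 23.5, 24.6 and 25.1 CPM in treated and 12.9, 15.3 and 13.5 CPM in control libraries, a log2 change of 0.81 (SE 0.0948, edgeR adjusted p = 2.99e-11). ULK1, the other kinase, stood at 66.9, 75.6 and 69.2 CPM in treated and 57.4, 48.6 and 48.3 CPM in control libraries, a log2 change of 0.46 (SE 0.0651). Both kinase genes were thus higher in every treated library than in any control library. ATG13, the adaptor that MTORC1 phosphorylates, averaged 95.1 ± 1.57 CPM in treated and 73.9 ± 0.692 CPM in control libraries, a log2 change of 0.36. ATG101, its partner, averaged 43.7 ± 3.34 and 38.7 ± 1.36 CPM in the same order (SD, n = 3 each), a log2 change of 0.18 (edgeR adjusted p = 0.0249). ATG101 was not called without treated replicate 1 (0.12, edgeR adjusted p = 0.202), treated replicate 3 (0.18, edgeR adjusted p = 0.0517), control replicate 1 (0.15, edgeR adjusted p = 0.0853) or control replicate 3 (0.16, edgeR adjusted p = 0.0723), nor with DESeq2 (adjusted p = 0.0513). Without a filter on low counts the calls of ATG101, BNIP3L, MAP1LC3A and TFEB were also lost (edgeR adjusted p = 0.0892, 0.151, 0.145 and 0.119 in that order of genes). RB1CC1 (FIP200), the scaffold, stood at 106, 105 and 107 CPM in treated and 103, 106 and 109 CPM in control libraries, and was not called (edgeR adjusted p = 0.913).

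The class III phosphoinositide 3-kinase complex makes the lipid that WIPI proteins read. Among its 4 genes in the list, BECN1 and ATG14 rose (50%), the catalytic subunit PIK3C3 fell (25%), and UVRAG was not called. Of all genes tested, 32.3% were higher and 31.2% lower. ATG14, which steers the complex to autophagosome formation, stood at 30.8, 33.1 and 30.0 CPM in treated and 18.6, 21.6 and 19.3 CPM in control libraries, a log2 change of 0.66 (SE 0.0846, edgeR adjusted p = 5.61e-10). BECN1 (Beclin 1), the scaffold, stood at 101, 104 and 98.9 CPM in treated and 76.3, 73.9 and 73.9 CPM in control libraries (0.44, SE 0.0551). In both genes every treated library stood above every control library, as in 34.1% of all genes tested. UVRAG, which takes the place of ATG14 in the complex of endosomes, averaged 17.5 ± 0.357 CPM in treated and 18.9 ± 0.696 CPM in control libraries (SD, n = 3 each). Its 3 treated libraries stood below its 3 control libraries, but the log2 change of -0.11 was not called (edgeR adjusted p = 0.309). PIK3C3 (VPS34) averaged 50.1 ± 1.58 CPM in treated and 56.7 ± 4.64 CPM in control libraries (SD, n = 3 each), a log2 change of -0.18 (edgeR adjusted p = 0.0158). PIK3C3 was not called without treated replicate 2 (-0.15, edgeR adjusted p = 0.0659), without control replicate 2 (-0.13, edgeR adjusted p = 0.11), with upper-quartile factors (-0.12, edgeR adjusted p = 0.0947) or with total-count scaling (-0.05, edgeR adjusted p = 0.534).

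The genes of lipid supply to the growing membrane split, 3 higher (60%) and 2 lower (40%), against 32.3% and 31.2% of all genes tested. WIPI1, a reader of the kinase's lipid, stood at 59.4, 61.7 and 62.7 CPM in treated and 43.5, 44.4 and 38.9 CPM in control libraries, a log2 change of 0.54 (SE 0.0653). WIPI2, the reader that recruits ATG16L1, averaged 139 ± 3.21 CPM in treated and 120.1 ± 3.29 CPM in control libraries (0.21, SE 0.0509). ATG2A and ATG2B, lipid-transfer paralogues, moved apart. ATG2A stood at 87.2, 89.2 and 85.9 CPM in treated and 68.8, 64.6 and 68.3 CPM in control libraries (0.38, SE 0.0570), and ATG2B at 36.7, 41.2 and 39.0 CPM in treated and 45.0, 41.9 and 48.0 CPM in control libraries (-0.21, SE 0.0702, edgeR adjusted p = 0.00856). ATG2B was not called without treated replicate 1 (-0.17, edgeR adjusted p = 0.0607), without control replicate 3 (-0.17, edgeR adjusted p = 0.0578) or with total-count scaling (-0.08, edgeR adjusted p = 0.332). ATG9A, the scramblase of the seed vesicles, stood at 54.6, 59.1 and 54.8 CPM in treated and 80.3, 65.1 and 70.8 CPM in control libraries (-0.36, SE 0.0641). Of the exon bases of ATG9A 38.8%, and of WIPI1 28.1%, lie in exons of other genes.

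The conjugation enzymes were the role with more members lower than higher, 4 against 2, with 3 not called. Lower calls took in 44.4% of these genes, against 31.2% of all genes tested. Among genes of at least 10 CPM the share was 42.2%, so the count of falls is close to that background. Higher calls took in 22.2%, against 32.3% of all genes tested. The cascade joins ATG12 to ATG5 and ATG8 proteins to lipid: ATG7 activates both, ATG10 hands ATG12 to ATG5, and ATG3 hands ATG8 proteins to the lipid. ATG5 (ENSG00000057663, chromosome 6, 106045423 to 106325791) stood at 44.0, 38.6 and 37.7 CPM in treated libraries, against 66.2, 73.1 and 66.1 CPM in control libraries. This was the largest fall among the 40 members, a log2 change of -0.77 (SE 0.0662, edgeR adjusted p = 4.59e-16). ATG3 stood at 73.6, 71.1 and 72.1 CPM in treated and 97.2, 108 and 96.5 CPM in control libraries, a log2 change of -0.48 (SE 0.0565, edgeR adjusted p = 5.52e-11). ATG7 stood at 27.1, 27.4 and 28.8 CPM in treated and 37.1, 35.7 and 33.6 CPM in control libraries, a log2 change of -0.35 (SE 0.0764). ATG10, among the lowest members, stood at 6.55, 6.30 and 6.70 CPM in treated and 8.50, 9.85 and 9.80 CPM in control libraries, a log2 change of -0.53 (SE 0.135, edgeR adjusted p = 0.000556). In each of these 4 genes every treated library was below every control library, as in 32.6% of all genes tested. Each was called under all alternatives except, for ATG3, ATG7 and ATG10, the test against a 1.5-fold change.

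**Figure D4:**
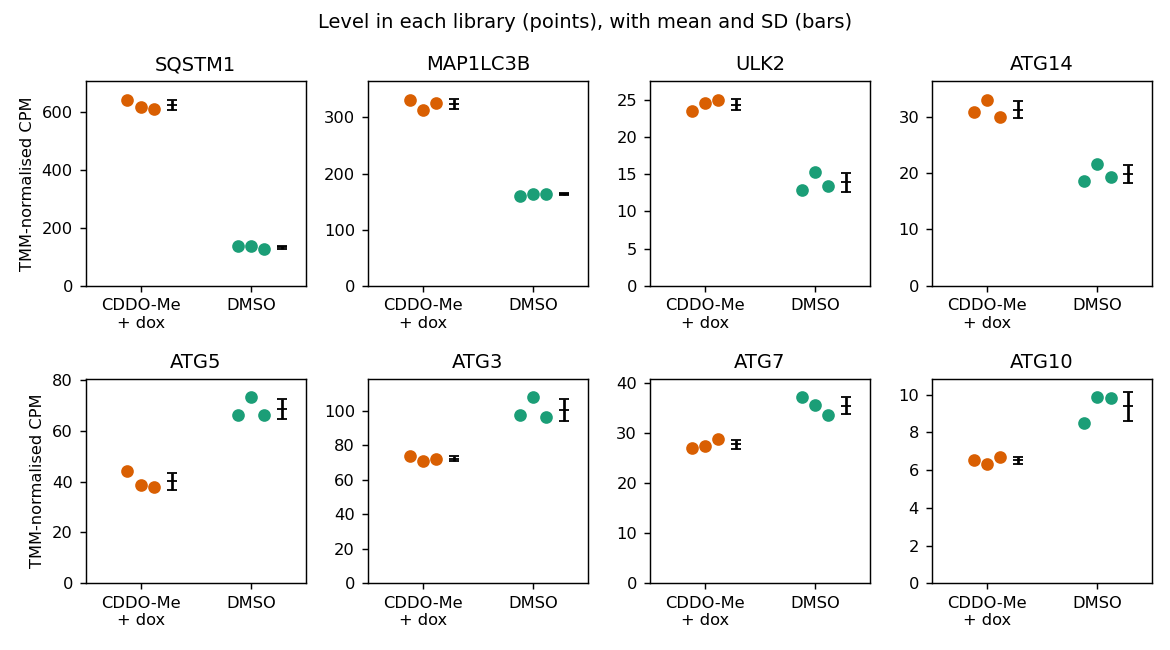
TMM-normalised CPM of 8 members in each library (points), treated left of DMSO, with mean and SD beside them. SQSTM1, MAP1LC3B, ULK2 and ATG14 stand higher and ATG5, ATG3, ATG7 and ATG10 lower in all 3 treated libraries.

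The partners of ATG5 did not follow it. ATG12, the ubiquitin-like protein joined to ATG5, stood at 93.9, 91.1 and 91.4 CPM in treated and 76.7, 81.2 and 80.1 CPM in control libraries, a log2 change of 0.22 (SE 0.0553). ATG16L1, which places the conjugate on the membrane, averaged 47.1 ± 1.16 CPM in treated and 48.9 ± 2.5 CPM in control libraries (SD, n = 3 each) and was not called (edgeR adjusted p = 0.472). Of the ATG4 proteases, which trim ATG8 proteins and release them from lipid, ATG4B rose, with 84.5, 84.7 and 90.5 CPM in treated and 63.5, 66.9 and 63.4 CPM in control libraries (log2 change 0.42, SE 0.0577). ATG4A (23.0 ± 2.17 CPM in treated, 23.6 ± 1.61 CPM in control libraries) and ATG4D (20.9 ± 0.690 CPM and 21.3 ± 1.45 CPM; SD, n = 3 each) had overlapping groups and were not called. With upper-quartile or total-count scaling the sign of these last 2 turned.

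DRAM1, a lysosomal membrane protein known as a p53 target that promotes autophagy, stood at 116, 125 and 119 CPM in treated and 87.6, 93.3 and 92.1 CPM in control libraries, a log2 change of 0.40 (SE 0.0535, edgeR adjusted p = 1.61e-09). STX17, the SNARE of autophagosomes that fuse with lysosomes, averaged 12.5 ± 0.698 CPM in treated and 14.3 ± 1.29 CPM in control libraries (SD, n = 3 each) and was not called (log2 change -0.20, edgeR adjusted p = 0.106). It was called without control replicate 1 (-0.26, edgeR adjusted p = 0.0486). TFE3, a transcription factor of lysosome and autophagy genes, stood at 107, 111 and 109 CPM in treated and 97.5, 92.6 and 94.4 CPM in control libraries (0.20, SE 0.0530). Its relative TFEB stood at 11.0, 11.3 and 11.2 CPM in treated and 10.2, 9.43 and 8.23 CPM in control libraries (0.27, SE 0.121, edgeR adjusted p = 0.0457). The call of TFEB was lost when any 1 library other than control replicate 1 was left out, with log2 changes of 0.18 (without control replicate 3) to 0.28 (without treated replicate 1) and edgeR adjusted p of 0.0679 to 0.244, and it was lost with DESeq2 (adjusted p = 0.0908). Both factors are controlled mainly by their place in the cell, which RNA does not show.

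Ratios of paired genes within a library do not depend on how libraries are scaled. For 12 pairs the log2 ratio of counts was compared between the groups with a two-sided exact permutation test, which cannot go below p = 0.1 with 3 against 3 libraries. The ratio of ATG2A to ATG2B was 1.25, 1.11 and 1.14 in treated and 0.61, 0.62 and 0.51 in control libraries. That of ATG14 and UVRAG also shifted, with UVRAG over ATG14 at -0.79, -0.95 and -0.77 in treated and -0.03, -0.14 and -0.04 in control libraries. The ratio of MAP1LC3B to MAP1LC3A was higher by 0.79, that of SQSTM1 to NBR1 by 1.71, that of WIPI1 to WIPI2 by 0.33 and that of CALCOCO2 to TAX1BP1 by 0.30 in treated libraries. The ratios of ULK1 to ULK2 (-0.36), GABARAPL1 to GABARAPL2 (-0.38), ATG4A to ATG4B (-0.46) and ATG4D to ATG4B (-0.45) were lower. In these 10 pairs the groups did not overlap, and the exact permutation p was 0.1, the smallest it can be (0.12 adjusted over the 12 pairs). As the pairs were chosen with results known, and 66.7% of all single genes did not overlap either, the count of 10 says nothing particular about these pairs. The ratios of BNIP3 to BNIP3L (-0.05) and of TFEB to TFE3 (0.07) had overlapping groups.

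Beyond the 40 members, 86 other genes of the pathway were listed in 4 groups, and 80 were tested. Of these, 37 were higher and 18 lower, 46.2% and 22.5%, against 32.3% and 31.2% of all genes tested, and their median log2 change was 0.11, against 0.02. At least 2-fold higher were 8 of the 80, or 10%, against 10.9% of all genes tested, which is close to the background. Among 18 other autophagosome genes tested, 9 rose (50%) and 5 fell (27.8%), to be read against the same shares of all genes. TP53INP1, a p53-induced protein that binds ATG8 proteins, averaged 143 ± 11.5 CPM in treated and 12.2 ± 1.35 CPM in control libraries, a log2 change of 3.55 (SE 0.0744). EI24, a p53-induced protein of the endoplasmic reticulum, averaged 271 ± 14.2 and 118 ± 5.43 CPM (1.20), and ATG16L2, a paralogue of ATG16L1, 15.4 ± 1.97 and 4.72 ± 0.361 CPM in the same order (1.71; SD, n = 3 each). VMP1, a lipid scramblase, fell by 0.67 on the log2 scale, and of the 2 further WIPI genes WDR45 rose (0.83) while WDR45B fell (-0.31).

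Among 18 other selective receptor genes tested, 7 rose (38.9%) and 3 fell (16.7%), with a median log2 change of 0.01, against 32.3% and 31.2% of all genes tested. CALCOCO1 (109 ± 7.59 CPM in treated and 56.0 ± 3.44 CPM in control libraries, log2 change 0.97) and TEX264 (37.7 ± 0.252 and 21.6 ± 1.71 CPM, 0.80), genes of endoplasmic reticulum receptors, rose. So did CCPG1 (0.67) and RETREG1 (0.61) of the same list, while RTN3 (-0.05) and SEC62 (0.05) were not called. The ferritin receptor gene NCOA4 rose by less (0.38), and WDFY3 (ALFY), a scaffold for aggregates, fell (38.0 ± 2.72 CPM in treated and 62.4 ± 5.36 CPM in control libraries, -0.72; SD, n = 3 each). Among 14 fusion and tethering genes tested, 7 rose (50%) and 2 fell (14.3%), against the same 32.3% and 31.2%. VPS11, a subunit of the tethering complex HOPS, had a log2 change of 0.66, SNAP29, a SNARE that pairs with STX17, of 0.51, and the tether gene TECPR1 of -0.37. The other listed HOPS genes moved by less. VPS39 (0.24), VPS16 (0.19) and VPS41 (0.15) rose, and VPS18 (-0.07) and VPS33A (-0.00) were not called.

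Genes of MTORC1, AMPK and TFEB control numbered 30 tested, of which 14 rose (46.7%) and 8 fell (26.7%), against 32.3% and 31.2% of all genes tested. The sestrin genes, whose products restrain MTORC1 and which p53 is known to induce, were among the largest. SESN2 stood at 221, 219 and 229 CPM in treated and 34.8, 30.6 and 33.9 CPM in control libraries, a log2 change of 2.75 (SE 0.0583). SESN1 stood at 55.1, 54.7 and 54.3 CPM in treated and 12.3, 14.4 and 11.2 CPM in control libraries (2.12, SE 0.0834). DDIT4 (REDD1), which restrains MTORC1 through the TSC complex, averaged 49.3 ± 3.94 CPM in treated and 15.1 ± 2.40 CPM in control libraries (1.72), and 41.2% of its exon bases are not its own alone. FLCN (folliculin, 0.78) and RRAGC (a Rag GTPase, 0.90), which control TFEB and TFE3 at the lysosome, rose as well. RHEB (-0.44), MLST8 (-0.37), AKT1S1 (-0.24) and RPTOR (-0.22) of the same list fell, and MTOR (-0.05) and RRAGA (0.07) were not called. The 6 listed subunit genes of AMPK, the kinase that senses low energy, did not move one way. Of its regulatory subunits, PRKAG2 fell, with 22.4 ± 1.15 CPM in treated and 44.6 ± 1.16 CPM in control libraries (log2 change -0.99), and PRKAB1 rose, with 106 ± 2.52 and 54.9 ± 3.52 CPM in the same order (0.95; SD, n = 3 each). Of its catalytic subunits PRKAA2 rose (0.40) and PRKAA1 fell (-0.22), and PRKAB2 (0.12) and PRKAG1 (-0.00) were not called.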

How the data were processed

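Per the labels' protocols, poly(A)-selected AC16 RNA was sequenced with an unstranded kit. Raw counts per Ensembl gene, with exon coordinates and lengths, were deposited as a single table. Tools named in the submitters' processing notes are featureCounts (Subread), STAR and SAMtools, with hg38 (GRCh38) as genome. Versions, annotation release and counting options are not given in the sources used here. Symbols were found for 57717 of 58299 identifiers.

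Groups and numbers came from the titles. Genes passing filterByExpr (minimum count 10; 15575 genes) were normalised by TMM and tested with edgeR 4.0.16 in R 4.3.3 (glmQLFit, glmQLFTest), adjusted p below 0.05. The SE is the log2 change over the square root of F. On counts simulated for this comparison (15575 genes), the calls took in 91.6% of the 95 genes given a 2-fold change and 77.1% of the 105 given a 1.41-fold change, and 4% of calls were false. Only those genes were changed in the simulation, while 63.5% of genes were called in the data, so these rates may not hold here. CPM per kilobase divides by merged exon length. The alternatives tried were other scalings (RLE, upper-quartile, total-count), other filters, DESeq2 1.42.0, limma-voom (limma 3.58.1), glmTreat, an adjusted p of 0.01, a replicate block and leaving out each library. Near-copies were sought with blastn (95% identity). Members, lists and gene pairs were chosen with earlier results of these data known. Of each other list, the 3 called genes of at least 1 CPM with the largest change are named. VMP1, WDR45, WDR45B, NCOA4, FLCN, RRAGC, RHEB, MLST8, AKT1S1, RPTOR, MTOR, RRAGA and the AMPK subunits were chosen after their values were seen. So were ATG4C, CCPG1, RETREG1, RTN3, SEC62, VPS16, VPS18, VPS33A, VPS39 and VPS41. One promoter window per member was taken, that with most GENCODE 29 coding starts within 50 bases. The windows of ATG2B, BECN1, DRAM1 and TFE3 had 0 such starts and are counted among the 33.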

Additional observations from a re-analysis of the deposited data

How the results depend on the processing

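Over the alternatives other than the test against a 1.5-fold change, 18 to 24 members were called higher and 5 to 10 lower, against 22 and 8. Total-count scaling gave the 5. Tested against a 1.5-fold change, 2993 genes of the whole table were called against 9893, 1852 of 15575 higher and 1141 lower. Among them were 3 members higher and 1 lower, and 16 other pathway genes higher and 2 lower. Leaving out 1 library at a time gave 18 to 20 members higher and 7 to 10 lower. In a choice made after seeing the data, the 31 members with at most 10% of their exon bases shared gave 18 higher and 6 lower. Same-numbered libraries did not deviate together (correlations of -0.0468, -0.0282 and -0.0153), so the numbers are not taken as pairs. The replicate block gave 19 members higher and 8 lower, and 9653 genes in all, and of the 40 calls it changed those of BNIP3L, MAP1LC3A and TFEB (adjusted p = 0.05). Signs turned only in members that were not called. With total-count scaling they were ATG16L1 (0.07), ATG4A (0.09), ATG4D (0.10), GABARAPL1 (0.00), PINK1 (0.07) and UVRAG (0.02), with upper-quartile factors ATG4A (0.02) and ATG4D (0.03), and without a filter RB1CC1 (-0.01). Without single libraries they were ATG4A (range -0.12 to 0.02), ATG4D (-0.09 to 0.01), BNIP3 (-0.00 to 0.09), GABARAP (-0.48 to 0.02) and RB1CC1 (-0.02 to 0.02). Total-count scaling called BNIP3 (0.19) and RB1CC1 (0.13) higher. The cause of these shifts was not tested. The 318 counts of GABARAP limit its precision.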
